A study of Oryza sativa with 10 samples.

Results

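Glycolysis turns hexose into pyruvate through a chain of enzymes, and the data here are the transcript counts of those enzymes in rice (Oryza sativa). The genes were chosen by words in the deposited descriptions, which had to name hexokinase, phosphofructokinase, aldolase, triosephosphate isomerase, glyceraldehyde-phosphate dehydrogenase (GAPDH), phosphoglycerate kinase, phosphoglycerate mutase, enolase or pyruvate kinase. The rule found 77 of 37727 loci. Of these, 54 were annotated as an enzyme of a glycolytic step, 1 was the non-phosphorylating GAPDH OsALDH11A3, and 22 only resembled a step in name or in a shared domain and are described last. The 54 enzyme genes were 10 for hexokinase, 4 for phosphofructokinase, 6 for aldolase, 3 for triosephosphate isomerase, 6 for GAPDH, 5 for phosphoglycerate kinase, 5 for phosphoglycerate mutase, 5 for enolase and 10 for pyruvate kinase. By the deposited annotation 14 of them were cytosolic, 7 plastid and 5 mitochondrial, and 28 had no stated compartment. The chloroplast GAPDH subunit A was not among the matches and is not analysed here.

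All plants were cultivar Nijinokirameki of genotype WT, sampled 5 days after flowering in 2024. CF plants received chemical fertilizer that supplied 56 kg/ha of N, 176 kg/ha of PO4 and 56 kg/ha of K, and GM plants grew on plowed-in hairy vetch (Vicia villosa) without chemical fertilizer. There were 2 endosperm libraries under CF and 2 under GM, each from pooled spikelets of a single plant, and 3 flag leaf libraries under each. By its title the study is about green manure and heat resilience at grain filling. The labels do not describe repeated plots, so the p-values here cover no more than the spread among these libraries, which may be technical. Libraries held 12200510 to 25827356 counted reads, and the 3 GM leaf libraries were the 3 shallowest of the leaf. Both tissues matched their labels: 38 of 42 tested starchy endosperm genes were higher in endosperm under CF, and 49 of 52 tested photosystem and chlorophyll-binding genes were lower in endosperm than in leaf under CF. The endosperm libraries still held reads of photosystem and chlorophyll-binding genes, with a summed level of the 60 genes at 8.83% of the leaf's under CF. The source of these reads was not tested.

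In plants glycolysis runs in the cytosol, and many of its steps also exist in plastids, where separate genes encode the enzymes. Several plastid forms, such as chloroplast aldolase, phosphoglycerate kinase and the A and B subunits of GAPDH, belong to the Calvin cycle in leaves and run in the direction of sugar synthesis. In a filling grain, incoming sucrose feeds starch synthesis, and cytosolic glycolysis supplies energy and carbon skeletons for storage products.

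Most steps had some isozymes higher in endosperm and others higher in leaf. Levels are TMM-scaled CPM, a read count relative to its library's total after TMM correction of that total, written CPM here, and folds compare the same gene between groups by edgeR's quasi-likelihood test with Benjamini-Hochberg adjustment over all genes. Under CF, 32 of 51 tested enzyme genes were higher in endosperm, 17 were lower and 2 passed in neither direction. This stands against a background of 45% of all 25035 genes tested higher and 38.1% lower in endosperm, and 83.1% called in all, so most genes differed between these tissues. The median log2 difference, endosperm over leaf, was 0.89 over the 51 enzyme genes and 0.15 over all genes tested. At least a 2-fold difference was found for 25 of the 32 and for 12 of the 17. Under GM, where 82.3% of all genes were called, 44.6% higher and 37.7% lower, 31 enzyme genes were higher and 17 lower. Of the genes called under CF, 31 were also higher and 17 also lower under GM, in separate libraries. Under CF all 9 steps had at least 1 gene in each direction, and under GM 8 did, with triosephosphate isomerase the exception. Its only gene higher under CF, OsTPI1, had a call that depended on the settings, given below. For phosphoglycerate mutase the gene lower in endosperm was Os03g0330200, below 1 CPM in every library, whose CF call was lost without CF endosperm replicate 2 (edgeR adjusted p 0.0819) or with a replicate block (0.0767). The largest adjusted p among the enzyme genes called was 0.00999 under CF and 0.00635 under GM. In bulk tissue, more cells of a type and more RNA per cell cannot be told apart.

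**Figure D1:**
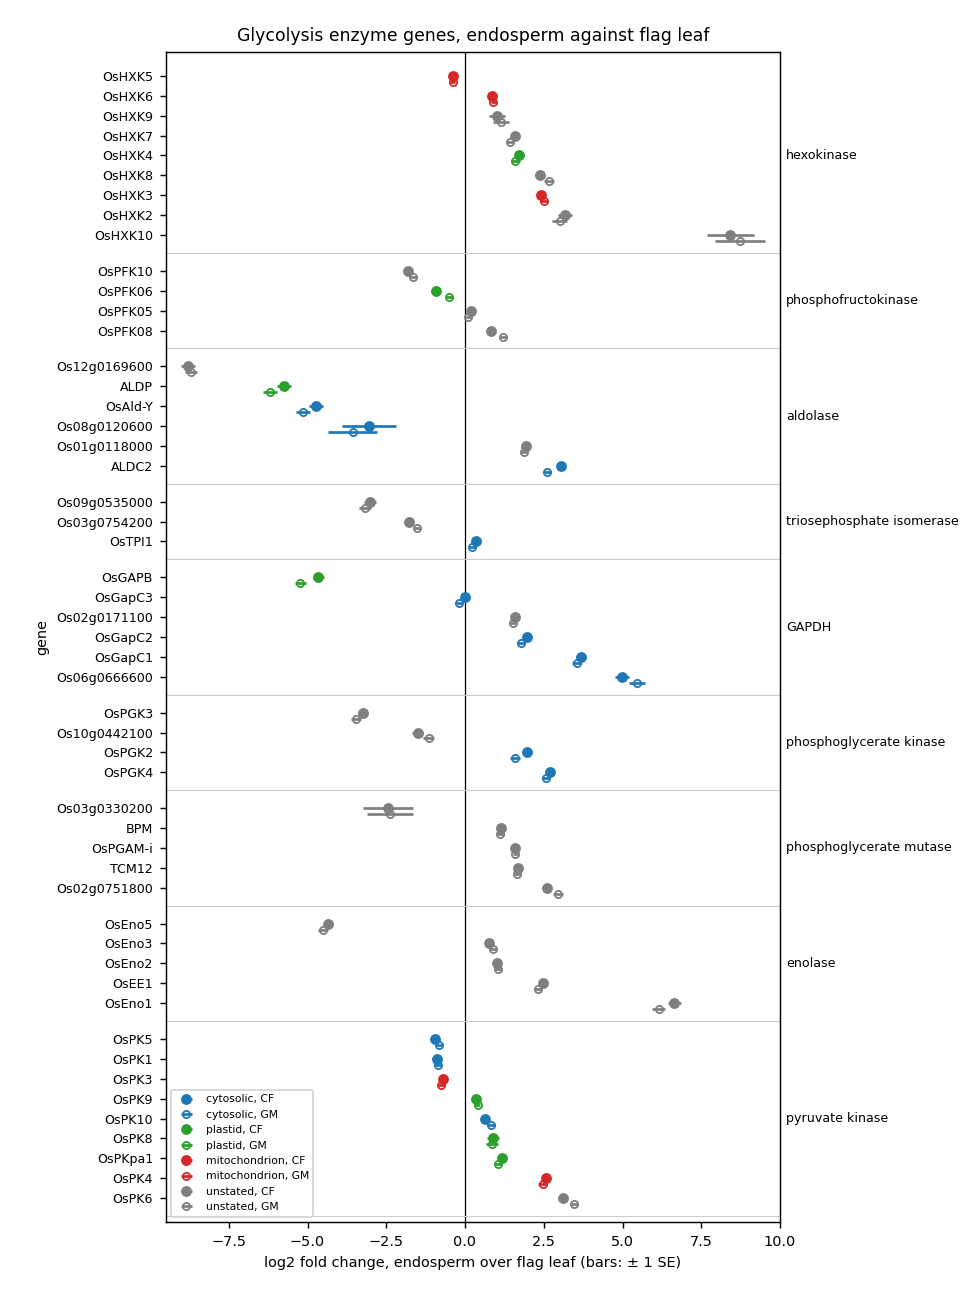
Log2 fold change of each tested glycolysis enzyme gene, endosperm over flag leaf, with genes grouped by step and coloured by annotated compartment. Filled points are CF, open points GM, and bars are ± 1 SE; every step has points on both sides of 0, and the farthest to the left are aldolase genes with ALDP at −5.74 under CF.

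Hexokinase phosphorylates glucose at the entry of the pathway, and 8 of its 9 tested genes were higher in endosperm. OsHXK6 (Os01g0742500), a mitochondrion-bound hexokinase known as a glucose sensor in rice, had 203 and 215 CPM in the CF endosperm libraries and 113, 120.0 and 112 CPM in the CF leaf libraries. The groups did not overlap, and the endosperm was 1.82-fold higher. The plastid form OsHXK4 (Os07g0197100) was 3.31-fold higher in endosperm, OsHXK3 (Os01g0940100) 5.28-fold and OsHXK2 (Os05g0532600) 9.03-fold. OsHXK10 (Os05g0375100) was a low endosperm transcript, at 2.63 and 2.14 CPM under CF and 2.6 and 3.41 CPM under GM, and had 0 reads in all 6 leaf libraries. A floor of 3 reads over the 3 CF leaf libraries allows up to 0.0513 CPM, so it was at least 46.5-fold higher in endosperm under CF, counting error only. The exception was OsHXK5 (Os05g0522500), the other glucose-sensing hexokinase, with a leaf level 1.3-fold above that of endosperm. Summed over the 10 genes, hexokinase reads came to 399.6 ± 3.78 CPM (SD, n = 2) in CF endosperm and 213 ± 5.65 CPM (SD, n = 3) in CF leaf.

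Phosphofructokinase commits hexose phosphate to glycolysis. Of the 4 genes placed here as its ATP-dependent form, 2 were lower in endosperm and 1 higher. OsPFK10 (Os10g0405600) was 3.51-fold and the plastid form OsPFK06 (Os06g0151900) 1.91-fold higher in leaf, while OsPFK08 (Os09g0415800) was 1.78-fold higher in endosperm. OsPFK05 (Os05g0524400) read 40.8 and 39.1 CPM in CF endosperm and 33.3, 34.1 and 37.9 CPM in CF leaf, a log2 difference of 0.19 (SE 0.09) with an edgeR adjusted p of 0.058. That gene was called with relative log expression scaling (adjusted p 0.0348) and by DESeq2 (0.0493). The summed phosphofructokinase level was 96.1 ± 3.31 CPM (SD, n = 2) in CF endosperm and 132 ± 0.881 CPM (SD, n = 3) in CF leaf. PPi-dependent phosphofructokinases use pyrophosphate in place of ATP for the same reaction. A list of 8 genes was taken by the words pyrophosphate and fructose in the description. It summed to 768 ± 64.3 CPM in CF endosperm and 370.4 ± 9.96 CPM in CF leaf (SD, n = 2 and 3). Of these 8 genes, 4 were higher and 4 lower in endosperm under CF. The lower ones included PFK1 (Os01g0191700) and PFK7 (Os08g0439000), whose symbols do not name a PPi-dependent form. PFK1 averaged 25.7 CPM in CF endosperm and 140 CPM in CF leaf.

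Aldolase splits fructose bisphosphate into triose phosphates, and the fitted log2 differences of its genes, endosperm over leaf, ran from −8.79 to 3.05 under CF. The plastid aldolase ALDP (Os11g0171300), a Calvin-cycle enzyme, had 16159, 15677 and 15671 CPM in the CF leaf libraries and 331 and 259.9 CPM in the CF endosperm libraries. The groups stood far apart, with leaf 53.6-fold higher. This single gene took 1.42% to 1.44% of all counted reads in CF leaf and 0.0308% to 0.0361% in CF endosperm. OsAld-Y (Os06g0608700), annotated as cytosolic, was also a leaf gene, 26.4-fold higher there. An aldolase without a symbol, Os12g0169600, had 143, 134 and 144 CPM in CF leaf and only 0.334 and 0.276 CPM in CF endosperm. Its endosperm level rested on few reads, and the fitted log2 difference, endosperm over leaf, was −8.79 (SE 0.22). The endosperm had its own aldolase in ALDC2 (Os05g0402700), a cytosolic form with 445 and 363 CPM against 46.7, 53.3 and 46.7 CPM in leaf, 8.27-fold higher. A further gene, Os01g0118000, was 3.86-fold higher in endosperm.

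Triosephosphate isomerase interconverts the triose phosphates from that split. The cytosolic OsTPI1 (Os01g0147900) had 649 and 554 CPM in CF endosperm and 471, 496 and 445 CPM in CF leaf, 1.28-fold higher in endosperm with an edgeR adjusted p of 0.00938. Under GM the same gene did not pass (adjusted p 0.0715 by edgeR), but did so without GM endosperm replicate 1 (0.0318) or GM leaf replicate 1 (0.0282). The CF call was lost without CF endosperm replicate 1 (adjusted p 0.113 by edgeR), without CF leaf replicate 3 (0.0588) and with a replicate block (0.102). The GM difference was called by DESeq2 (adjusted p 0.0399) and by edgeR with no filter on low counts (0.0468). The gene Os09g0535000, whose compartment the annotation does not state, was 8.07-fold higher in leaf.

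GAPDH oxidizes glyceraldehyde phosphate and yields the first NADH of the pathway, and its cytosolic genes formed a graded series. OsGapC1 (Os02g0601300) had 2149 and 1582 CPM in CF endosperm and 151, 143 and 144 CPM in CF leaf, a 12.8-fold excess in endosperm. OsGapC2 (Os04g0486600) had 1192 and 971 CPM against 287, 268 and 265 CPM, a 3.96-fold excess. OsGapC3 (Os08g0126300) read 1325 and 1153 CPM in CF endosperm and 1257, 1241 and 1194 CPM in CF leaf, and the groups overlapped. Its log2 difference, endosperm over leaf, was 0.01 (SE 0.11) under CF and −0.18 (SE 0.11) under GM, with edgeR adjusted p-values of 0.935 and 0.135. DESeq2 called the GM difference, as lower in endosperm (adjusted p 0.0381). The other cytosolic gene, Os06g0666600, was 31.6-fold higher in endosperm, where it had 16.5 and 17.4 CPM. Leaf in turn held the chloroplast subunit OsGAPB (Os03g0129300), with 4505, 4261 and 3995 CPM under CF against 187 and 148 CPM in endosperm, 25.3-fold higher in leaf. OsALDH11A3 (Os08g0440800), the non-phosphorylating GAPDH that bypasses the ATP-forming step, was 9.53-fold higher in leaf. The 4 cytosolic GAPDH genes together came to 4203 ± 677 CPM (SD, n = 2) in CF endosperm and 1650.4 ± 45.1 CPM (SD, n = 3) in CF leaf. All 6 GAPDH genes, OsGAPB included, were higher in leaf as a sum, with 4431 ± 703 CPM in CF endosperm and 5924 ± 300 CPM in CF leaf.

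**Figure D2:**
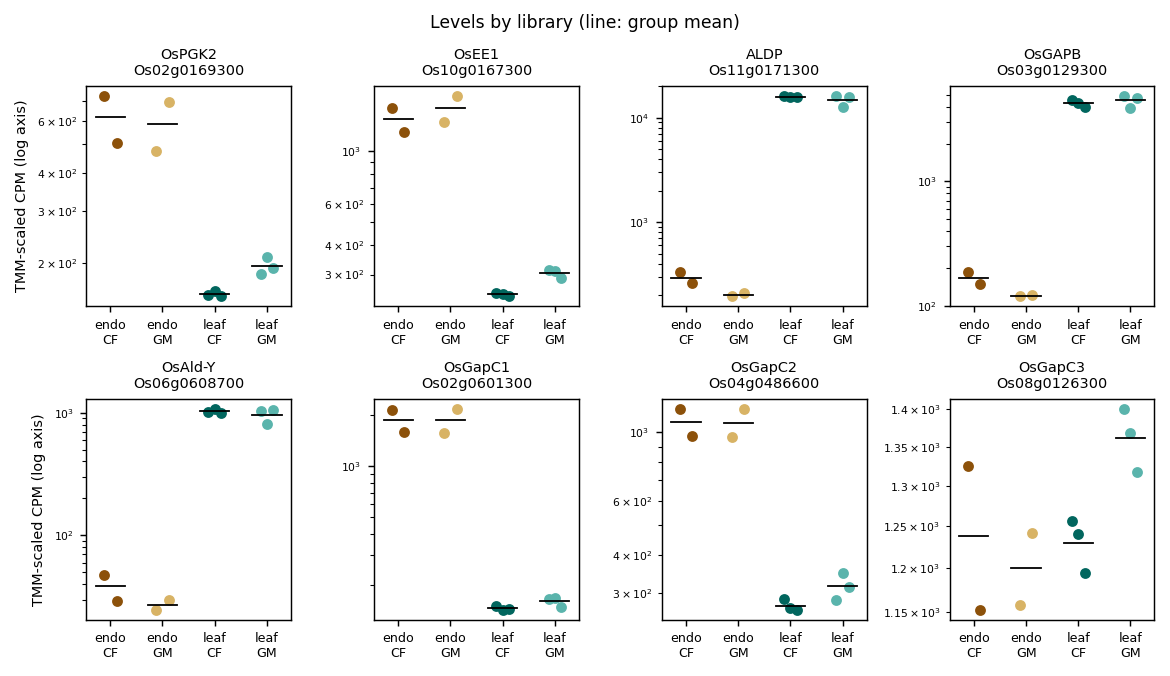
TMM-scaled CPM (log axis, a separate range in each panel) of 8 genes in each of the 10 libraries, with a line at each group mean. OsGapC1 and OsGapC2 are high in endosperm, OsGapC3 overlaps between tissues under CF, and ALDP, OsGAPB and OsAld-Y are high in leaf; OsPGK2 and OsEE1 show GM leaf libraries above all CF leaf libraries.

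Phosphoglycerate kinase makes the first ATP of the pathway. The cytosolic OsPGK2 (Os02g0169300) had 728 and 506 CPM in CF endosperm and 157, 162 and 155 CPM in CF leaf, 3.91-fold higher in endosperm, although its endosperm replicates lay far apart. OsPGK4 (Os06g0668200), also annotated as cytosolic, was 6.45-fold higher in endosperm. OsPGK3 (Os05g0496200), of unstated compartment, was the leaf gene, with 2247, 2078 and 1846 CPM against 232 and 202 CPM in endosperm, 9.48-fold higher. The gene Os10g0442100 was 2.83-fold higher in leaf at a low level.

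Phosphoglycerate mutase moves the phosphate group within phosphoglycerate, and enolase forms phosphoenolpyruvate (PEP) from the product. For the mutase, BPM (Os01g0817700) had 692 and 577 CPM in CF endosperm and 276, 293 and 289 CPM in CF leaf, 2.22-fold higher in endosperm. OsPGAM-i (Os05g0482700) was 2.98-fold higher in endosperm, TCM12 (Os12g0536000) 3.25-fold and Os02g0751800 6.02-fold. Among the enolases, OsEE1 (Os10g0167300) had 1534 and 1208 CPM in CF endosperm and 251, 248 and 242 CPM in CF leaf, 5.55-fold higher. OsEno1 (Os09g0375000) was nearly absent from leaf, at 70.1 and 60.9 CPM in CF endosperm and 0.445, 0.597 and 0.842 CPM in CF leaf. OsEno2 (Os03g0248600) and OsEno3 (Os03g0266200) were 2.00-fold and 1.71-fold higher in endosperm. OsEno5 (Os06g0136600) was the leaf enolase, with 259.6, 268 and 257 CPM against 14.8 and 10.8 CPM, 20.2-fold higher in leaf. The 5 enolase genes summed to 1741 ± 261 CPM (SD, n = 2) in CF endosperm and 658 ± 8.16 CPM (SD, n = 3) in CF leaf, and the 5 mutase genes to 897 ± 85.2 and 368 ± 8.1 CPM.

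Pyruvate kinase closes the pathway with a second ATP-forming reaction, and its isozymes differed between tissues in both directions. OsPK4 (Os12g0145700) had 157 and 141 CPM in CF endosperm and 24.6, 27.1 and 23.6 CPM in CF leaf, 5.94-fold higher in endosperm, and OsPK6 (Os01g0660300) was 8.61-fold higher. OsPK3 (Os04g0677500), OsPK1 (Os11g0148500) and OsPK5 (Os01g0276700) were 1.61-fold, 1.84-fold and 1.92-fold higher in leaf. All 3 plastid forms were higher in endosperm under CF. Of these OsPKpa1 (Os07g0181000), a plastid subunit whose loss is known to disturb starch in rice endosperm, had 193 and 193 CPM against 87.1, 90.8 and 81.3 CPM in leaf, 2.24-fold higher. OsPK8 (Os03g0672300) was 1.86-fold and OsPK9 (Os10g0571200) 1.29-fold higher, and the latter call was lost without CF endosperm replicate 2 (edgeR adjusted p 0.0668). The summed pyruvate kinase level was 925 ± 8.14 CPM (SD, n = 2) in CF endosperm and 863 ± 14.4 CPM (SD, n = 3) in CF leaf, a ratio of 1.07.

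Read as a whole pathway, the 7 plastid genes did not share a direction. ALDP, OsGAPB and OsPFK06 were higher in leaf, and OsHXK4, OsPKpa1, OsPK8 and OsPK9 were higher in endosperm. Of the 13 tested cytosolic genes, 8 were higher and 4 lower in endosperm under CF, against 45% and 38.1% of all genes tested. Among the lower was Os08g0120600, with 0.907 and 0 CPM in CF endosperm. Its CF call was lost with a replicate block (edgeR adjusted p 0.185). The 54 enzyme genes together came to 11131 ± 1425 CPM (SD, n = 2) in CF endosperm and 28831 ± 867 CPM (SD, n = 3) in CF leaf. Without ALDP and OsGAPB the order turned under CF, with 10668 ± 1347 CPM in endosperm and 8741 ± 387 CPM in leaf. Under GM the tissues overlapped in this sum, with 9991 and 11783 CPM in endosperm and 10284, 8786 and 9279 CPM in leaf. OsPGK3, also high in leaf, was kept in it. Such sums weight each gene by its reads, and so by its transcript length, and were compared between libraries only.

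**Figure D3:**
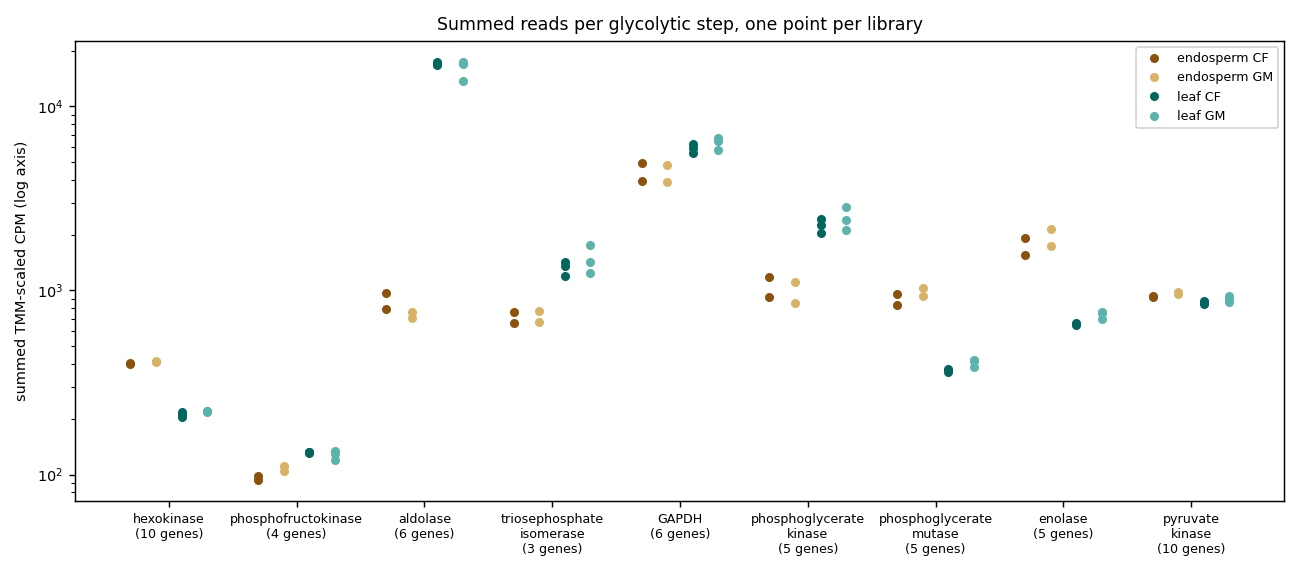
Summed TMM-scaled CPM (log axis) of the genes of each glycolytic step, 1 point per library. Hexokinase, phosphoglycerate mutase and enolase lie higher in endosperm. Phosphofructokinase, aldolase, triosephosphate isomerase, GAPDH and phosphoglycerate kinase lie higher in leaf. CF and GM points of a tissue lie close together.

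Under green manure, the flag leaf showed small upward shifts in 2 enzymes of the lower pathway. OsPGK2 had 157, 162 and 155 CPM in the CF leaf libraries and 185, 210.2 and 193 CPM in the GM leaf libraries. Every GM leaf library was above every CF leaf library, and the log2 fold change, GM over CF, was 0.32 (SE 0.08) with an edgeR adjusted p of 0.0467. The enolase OsEE1 had 251, 248 and 242 CPM under CF and 315, 311 and 289 CPM under GM. Again the groups did not overlap, and its log2 fold change was 0.31 (SE 0.08) with an edgeR adjusted p of 0.0488. These were the 2 of 68 tested genes called, both higher, against a background of 2.94% of all 20208 genes called, 2.47% higher and 0.47% lower. A share of 2 in 68 is close to that background. DESeq2 called 3 of 68, both of these and the aldolase gene Os12g0169600, against 3.88% of all genes. Both adjusted p-values lay near the threshold: each call was lost without any 1 of the 3 CF leaf libraries, without GM leaf replicate 2 or without GM leaf replicate 3 (edgeR adjusted p 0.0684 to 0.25). Under relative log expression scaling the p-values were 0.0551 for OsPGK2 and 0.0573 for OsEE1, and in a fit of all 10 libraries 0.375 and 0.244. With leaf libraries thinned to equal depth, OsPGK2 was still called and OsEE1 was not (0.0524 by edgeR).

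Next in the leaf came aldolases. The gene Os12g0169600 had 143, 134 and 144 CPM under CF and 194, 149 and 199 CPM under GM, without overlap. Its log2 fold change was 0.37 (SE 0.10) and its edgeR adjusted p 0.0763, and DESeq2 called it (adjusted p 0.0391). ALDC2 had 46.7, 53.3 and 46.7 CPM under CF and 61.4, 64.4 and 55.2 CPM under GM, a log2 fold change of 0.31 (SE 0.09) with an edgeR adjusted p of 0.0786. The abundant Calvin-cycle forms showed no call. ALDP had 16159, 15677 and 15671 CPM under CF and 16184, 12682 and 15727 CPM under GM, a log2 fold change of −0.08 (SE 0.12), and OsGAPB one of 0.09 (SE 0.11).

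Over the 48 enzyme genes tested in leaf, 36 log2 fold changes, GM over CF, were positive and 12 negative, with a median of 0.12. Over all 20208 genes the median was 0.0015, with 10171 positive values. Among the enzyme genes, 11 had all GM leaf libraries above all CF leaf libraries and 1 all below, against 11.7% and 10.6% of all genes tested (22.4% in all). All 5 enolase genes and all 5 tested GAPDH genes had positive values, from 0.08 to 0.75, and 1 of these 10 was called. The 0.75 (SE 0.44) was that of OsEno1, which had few leaf reads. It had 0.445, 0.597 and 0.842 CPM under CF and 1.49, 1.35 and 0.495 CPM under GM, overlapping groups. The next highest was 0.31 for OsEE1. Of the 4 phosphofructokinases 3 were negative. The plastid form OsPFK06 had 46.7, 47.8 and 46.2 CPM under CF and 38.5, 41.6 and 42.6 CPM under GM, without overlap, with a log2 fold change of −0.19 (SE 0.07) and an edgeR adjusted p of 0.214. For 38 of the 48 genes the estimate was within 0.25 of 0 on the log2 scale, and the median SE was 0.097. The GM leaf libraries were the shallower ones. Photosystem and chlorophyll-binding genes had a median log2 fold change of 0.0049 in leaf over 51 tested, with none called.

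**Figure D4:**
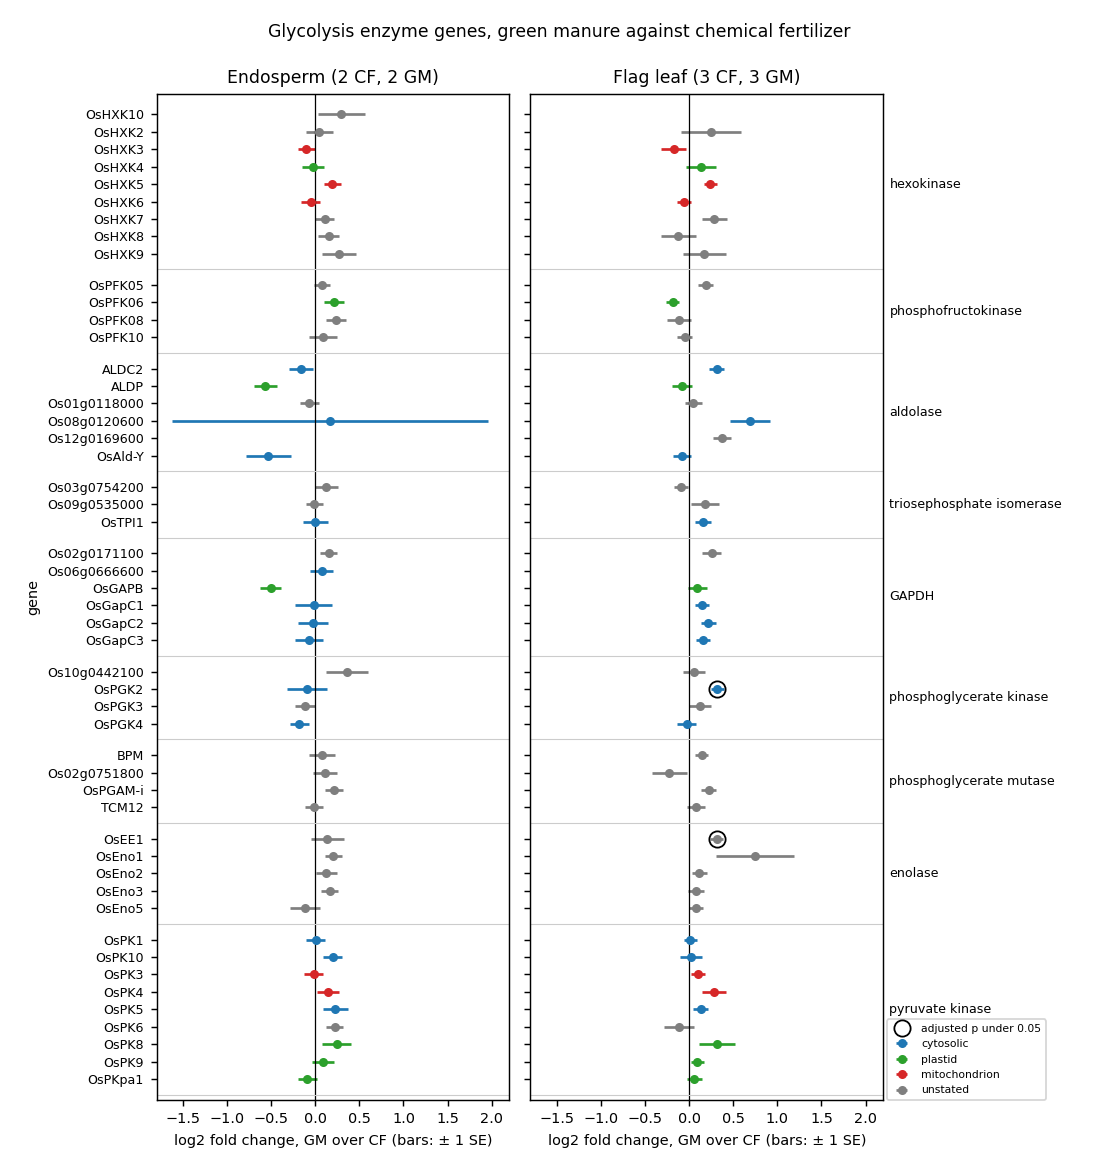
Log2 fold change, GM over CF, of each enzyme gene in endosperm (left) and flag leaf (right), grouped by step and coloured by annotated compartment, with bars of ± 1 SE. Black rings mark the 2 genes called, OsPGK2 and OsEE1 in leaf; in endosperm the lowest values are ALDP, OsAld-Y and OsGAPB, and the long bar belongs to Os08g0120600, which had few reads.

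In the endosperm, edgeR called no glycolysis gene for green manure. In that test, 0 of 68 tested genes were called, against 1.26% of all 23094 genes tested (0.0303% higher and 1.23% lower). At an unadjusted p under 0.05 there were 5 of the 68, against 14.6% of all genes. DESeq2 called 2 of the 59 genes to which it gave an adjusted p, both lower, against 1.75% of all genes. Of the 49 enzyme genes, 43 had estimates within 0.25 of 0 on the log2 scale, and the median SE was 0.122. The median log2 fold change, GM over CF, was 0.08 over these 49 and 0.0026 over all genes. Non-overlapping groups are frequent with 2 libraries against 2. Among the enzyme genes, 14 had both GM libraries above both CF libraries and 4 both below, against 26.6% and 20.6% of all genes (47.2% in all).

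Among the 49 enzyme genes, the 3 lowest values in endosperm belonged to ALDP, OsAld-Y and OsGAPB, all higher in leaf. Over the leaf-higher isozymes as a whole the signs were mixed. Of the 15 enzyme genes lower in endosperm than in leaf under CF and tested here, 7 had negative log2 fold changes, GM over CF, and 8 positive ones, the latter up to 0.36 for Os10g0442100. ALDP had 331 and 259.9 CPM under CF and 195 and 211 CPM under GM, and the groups did not overlap. Its log2 fold change was −0.56 (SE 0.13) with an edgeR adjusted p of 0.0611, and DESeq2 called it (0.00134). OsGAPB had 187 and 148 CPM under CF and 119 and 122 CPM under GM, also without overlap. Its log2 fold change was −0.50 (SE 0.12) with an edgeR adjusted p of 0.0652, and DESeq2 called it (0.0101). OsAld-Y had 47.9 and 29.1 CPM under CF and 24.8 and 29.6 CPM under GM, groups that overlapped, with a log2 fold change of −0.53 (SE 0.26) and an edgeR adjusted p of 0.44. edgeR called all 3 genes lower with no filter on low counts. Fits without 1 endosperm library set 1 library against 2, so their calls were not used for these genes. Photosystem and chlorophyll-binding genes lay in the same direction: 43 of 49 tested were negative with a median of −0.36, none was called, and their sum was 7532 and 5369.6 CPM under CF and 4892 and 4941 CPM under GM. Of the 60 genes, 8 were at 0 under CF and 5 under GM. Embryo and aleurone genes moved as well, with 4 of 7 called lower, none at 0, and a summed level of 921 and 967 CPM under CF and 519 and 444 CPM under GM. Starchy endosperm genes had a median log2 fold change of −0.29 over 42 tested with none called, and their sum was 84325 and 63987 CPM under CF and 50383 and 68104 CPM under GM. OsMADS29 averaged 73.3 ± 7.73 CPM under CF and 70.9 ± 2.85 CPM under GM (SD, n = 2 each). The part of these marker genes in the result was not tested.

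Several genes high in endosperm varied between replicates more than between fertilizers. OsGapC1 had 2149 and 1582 CPM under CF and 1567 and 2174 CPM under GM. OsPGK2 had 728 and 506 CPM under CF and 475 and 695 CPM under GM. OsEE1 had 1534 and 1208 CPM under CF and 1340.2 and 1725 CPM under GM. In each, CF replicate 1 and GM replicate 2 were the high libraries, and the fertilizer groups overlapped. OsGapC2, OsTPI1, BPM and OsGapC3 had the same high and low libraries. Of the 46 tested enzyme genes with a mean of at least 5 CPM in endosperm, 26 (56.5%) were higher in CF replicate 1 than in CF replicate 2 and higher in GM replicate 2 than in GM replicate 1. The share among all 15051 loci above that level was 32%. The sum of all enzyme genes was 12139 and 10124 CPM under CF and 10305 and 12115 CPM under GM. The storage and starch markers given above had CF replicate 1 above CF replicate 2 and GM replicate 2 above GM replicate 1 as well, and their part in this pattern was not tested.

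The green manure effect was also compared between tissues within a single fit. With edgeR, 0 of 71 tested genes had a different effect, against 0.615% of all 25035 genes (0.0599% with the endosperm effect higher and 0.555% with it lower). At an unadjusted p under 0.05 there were 5 of the 71, against 11.9% of all genes. DESeq2 called 1 of the 66 genes to which it gave an adjusted p, OsGAPB, against 1.73% of all genes. For OsGAPB the endosperm effect minus the leaf effect was −0.56 (SE 0.20) on the log2 scale, with an edgeR adjusted p of 0.282 and a DESeq2 adjusted p of 0.0485. For OsPGK2 the difference was −0.39 (SE 0.23) and for OsEE1 −0.14 (SE 0.18), with edgeR adjusted p-values of 0.546 and 0.821. The leaf calls of these genes were therefore not shown to differ from endosperm.

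Around the pathway, 3 fertilizer calls were made in the tissues together, at shares close to those over all genes. A list of 64 genes for glucose-phosphate isomerase, PPi-dependent phosphofructokinase, fructokinase, phosphoglucomutase, UDP-glucose pyrophosphorylase, PEP carboxylase, PEP carboxykinase, pyruvate phosphate dikinase, pyruvate dehydrogenase and phosphate translocators was described for comparison. Its genes were chosen by words in their descriptions. In endosperm 1 of 51 tested was called, against the 1.26% of all genes given above: the PEP carboxykinase Os03g0255500, whose enzyme draws PEP from oxaloacetate. It fell from 41.1 and 35 CPM to 27.4 and 23.6 CPM, a log2 fold change of −0.60 (SE 0.11) with an edgeR adjusted p of 0.0249. The family did not fall as a whole. Another PEP carboxykinase gene, Os10g0204300, had 25.2 and 26.9 CPM under CF and 34.9 and 33.5 CPM under GM (edgeR adjusted p 0.139). Of the 4 PEP carboxykinase genes, 3 had positive values in endosperm. The 4 genes summed to 72.5 and 68.3 CPM under CF and 68.4 and 64.8 CPM under GM. In leaf 2 of 51 were called, against 2.94% of all genes. HSA1 (Os03g0602600), a fructokinase-like chloroplast protein, rose from 19.2, 21.1 and 20.4 CPM to 31, 24 and 26.9 CPM, a log2 fold change of 0.44 (SE 0.10) with an edgeR adjusted p of 0.0461. OsPPDKB (Os05g0405000), the pyruvate phosphate dikinase that regenerates PEP from pyruvate, fell from 987, 1149 and 1164 CPM to 799, 781 and 839.6 CPM, a log2 fold change of −0.44 (SE 0.09) with an edgeR adjusted p of 0.0300. These calls depended on the settings, and those in leaf also on single libraries. Without CF endosperm replicate 1, a fit with 1 CF library, the log2 fold change of Os03g0255500 was −0.51. Its call was lost in the fit of all 10 libraries (edgeR adjusted p 0.0868). That of HSA1 was lost without any 1 leaf library other than GM replicate 2 (0.0712 to 0.182). It was also lost with relative log expression scaling (0.0536), a replicate block (0.0583), all 10 libraries in a single fit (0.0572) and equal depth (0.0775). That of OsPPDKB was lost without CF leaf replicate 2 or 3 or without GM leaf replicate 3 (0.0714 to 0.174), and in the fit of all 10 libraries (0.19). In endosperm OsPPDKB had 13148 and 9282 CPM under CF and 8608 and 11912 CPM under GM, overlapping groups, again with CF replicate 1 and GM replicate 2 as the high libraries. Between tissues under CF, 25 of 53 tested list genes were higher and 22 lower in endosperm, against 45% and 38.1% of all genes tested.

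The 22 genes that matched by resemblance only were 14 histidine-phosphatase proteins described as phosphoglycerate mutase-like, 5 with the domain shared by pyruvate kinase and PEP-using enzymes, and 3 others. The others were OsABO6, described as an aldolase but carrying a helicase domain, the sugar kinase-like PFKB1 and a relative of phosphoglycerate kinase. Of 19 tested, 6 were higher and 11 lower in endosperm under CF, against 45% and 38.1% of all genes tested. Of the 11 tested histidine-phosphatase genes 8 were lower in endosperm, among them Os01g0237100, which had 96.9, 109 and 106 CPM in CF leaf and 2.48 and 1.59 CPM in CF endosperm, 49.4-fold higher in leaf. None was called for fertilizer in either tissue by edgeR, with 2 of 18 in endosperm and 6 of 19 in leaf at an unadjusted p under 0.05, against 14.6% and 16.6% of all genes. The smallest adjusted p in endosperm belonged to Os05g0141700, with 12.8 and 15.5 CPM under CF and 9.56 and 8.32 CPM under GM, a log2 fold change of −0.68 (SE 0.16) and an edgeR adjusted p of 0.0591. Without GM endosperm replicate 1, a fit with 1 GM library, its log2 fold change was −0.78. Of all 77 matches, 68 passed the filter on low counts in endosperm, 68 in leaf and 71 in the fit of both tissues. The pyruvate kinase OsPK7 and the locus Os02g0325401 had no read in any library, and OsHXK1 and OsPGK1 stayed below 1 CPM throughout.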

How the data were processed

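Libraries were directional and made from poly(A) RNA, per the labels' protocols. The authors deposited raw counts of unique exon reads per locus, in a table for each tissue, and the submitters' processing notes name build IRGSP-1.0. An aligner or counter is not given in the sources used. Unique counting leaves out reads shared by close paralogs, whose levels are therefore uncertain. No gene lengths, coordinates or sequences were used. Levels were compared between genes in the rule for naming genes, in cutoffs on CPM and in words such as low, high or abundant. In these uses CPM was not corrected for length.

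The tests used edgeR 4.0.16 (R 4.3.3, limma 3.58.1): filterByExpr with minimum count 10, TMM scaling, robust quasi-likelihood F test, Benjamini-Hochberg adjustment over all genes tested and calls at 0.05. Each tissue was fitted alone for GM against CF, and all 10 libraries together for the tissue comparisons and their difference. SE is the size of the log2 fold change divided by the square root of F. The procedure was tested on simulated counts. Replicates differed beyond sampling noise. Alternatives were relative log expression, no filter, DESeq2 1.42.0, a replicate block, the 20 most abundant genes left out, equal depth in leaf, a joint fit and each library left out.

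The genes and lists were chosen with earlier results of these data known. Enzymes were told from look-alikes by the deposited InterPro terms, and any row without such terms was taken as an enzyme by its description. Compartments were read from the deposited descriptions, symbols and location terms. The use of InterPro and location terms was decided after the files were seen. The rule for naming took called genes, the highest gene per step and compartment in each tissue, and the 3 largest tissue differences in each direction at a mean of at least 5 CPM. Other genes were named after their values were seen.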

Additional observations from a re-analysis of the deposited data

How the results depend on the processing

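With 2 and 3 libraries per group, only large or very regular fertilizer effects could pass, and the calls near the threshold depended on the settings. In endosperm the count of genes called for GM against CF was 0 with edgeR, 5 with no filter on low counts, 2 with DESeq2 and 3 with a crossed replicate block, all lower, and 0 to 3 over the fits that left out 1 library. In leaf it was 2, against 0 with relative log expression scaling, 4 with no filter, 3 with DESeq2, 0 in the joint fit of 10 libraries and 1 at equal depth, all higher, and 0 to 2 without 1 library. Leaving out 1 endosperm library set 1 library against 2 in the fit of endosperm alone. The causes were not tested. For the difference between tissues it was 0, against 1 with DESeq2, and 0 to 0 without 1 library. In the tissue comparisons 67 members were called under CF and 64 under GM, and 65 to 68 and 64 to 66 when 1 library was left out. With over 80% of all genes called, such counts say little about single genes. No paired samples are described in the labels. Between CF and GM, the deviations of same-numbered libraries had r = −0.143 in endosperm and 0.051, −0.004 and −0.02 in leaf. Between endosperm and leaf, r was 0.033 and −0.138 under CF and −0.155 and −0.132 under GM. With 2 libraries in a group the deviations mirror each other, so the endosperm holds a single value. With so few libraries, these values cannot decide whether equal numbers mark pairs. With a replicate block the counts were 0 in endosperm, 2 in leaf, 0 for the difference, 63 under CF and 63 under GM. In leaf the block lost OsEE1 (adjusted p 0.0517 by edgeR) and gained Os12g0169600 (0.0376). The crossed block was added after seeing the data. In endosperm under GM it called ALDP, OsGAPB and Os05g0141700 lower (edgeR adjusted p 0.00983, 0.021 and 0.0267). Of 5025 values of single genes under these alternatives, none reversed a called direction, 49 lost their call, 31 gained a call and 190 uncalled values changed sign.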
